A study of Mus musculus with 2 samples.

Results

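Of the 27998 genes counted in γδ T cells sorted from mouse liver and thymus, 4 were followed here, taken by their symbols. These were the signalling adaptors Tyrobp, Fcer1g and Hcst and the receptor gene Ncr1. The data are 1 droplet 3′ single-cell library of hepatic cells and 1 of thymic cells, both from untreated wild type C57BL/6J mice aged 8 weeks. Both suspensions were sorted for CD3e and the γδ T cell receptor, and the thymic suspension was first depleted of CD4 and CD8 positive cells with magnetic beads. Cells of several mice are mixed in a library and cannot be told apart, so nothing below has a replicate check, and all intervals are 95% intervals that cover counting error only.

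Tyrobp encodes DAP12 and Fcer1g encodes the Fc receptor γ chain (FcRγ). Both are small transmembrane adaptors with hardly any outer part, which pair with activating receptors and carry the immunoreceptor tyrosine-based activation motif (ITAM) that recruits the kinases Syk and Zap70. Hcst encodes DAP10, which carries a different tyrosine motif that binds phosphatidylinositol 3-kinase and Grb2 and which serves the receptor NKG2D. Ncr1 encodes NKp46, an activating receptor best known from natural killer (NK) cells that has no signalling motif of its own and relies on FcRγ and the CD3ζ chain. In natural killer and myeloid cells these adaptors hold many receptors at the surface, and some T cells with innate-like functions use them as well.

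The files give 1 Ensembl identifier for each gene, and positions follow GENCODE vM21 on GRCm38, the build that mm10 denotes. Tyrobp (ENSMUSG00000030579) lies at chr7:30413760-30417585 on the plus strand. Hcst (ENSMUSG00000064109) lies beside it at chr7:30417712-30419854 on the minus strand, so that the 3′ ends of the 2 genes face each other with 126 bases and no annotated gene between them. Ncr1 (ENSMUSG00000062524) lies at chr7:4337724-4345164 on the plus strand and Fcer1g (ENSMUSG00000058715) at chr1:171229572-171234365 on the minus strand. None of the 4 overlaps another annotated gene. Whether strand was used in counting is not given in the sources used here.

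The stretches of coding sequence that make these genes adaptors are shown first, since the results turn on the contrast between the ITAM genes and Hcst. Capitals mark the tyrosine codons. The ITAM was searched as a tyrosine codon, 2 further codons and a leucine or isoleucine codon, repeated after 6 to 8 codons, in the reading frame of GENCODE transcripts.
Tyrobp: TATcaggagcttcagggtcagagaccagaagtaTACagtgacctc
Fcer1g: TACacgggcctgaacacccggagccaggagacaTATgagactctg
Hcst: TACatcaacatg
The Tyrobp stretch spans codons 92 to 106 of 114 and is split over 2 exons between chr7:30415670-30417382, and the Fcer1g stretch spans codons 65 to 79 of 86 and is likewise split over 2 exons between chr1:171229889-171230072. Both have 15 codons, with 7 between the repeats. The Hcst stretch, a tyrosine, any codon, an asparagine and a methionine codon, lies in 1 exon at chr7:30417821-30417832 and gives codons 72 to 75 of 79. The ITAM pattern was found in 1 of the 2 coding transcripts searched for Tyrobp and in 1 of the 2 for Fcer1g, and in none of the 2 for Hcst or the 2 for Ncr1. The other Tyrobp transcript is annotated without a start codon, so its reading frame was not settled.

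The windows around the annotated starts are shown because Fcer1g and Ncr1 were higher in the same hepatic class while Hcst was not. RefSeq promoters on GRCm38.p6, from 250 bases before to 50 after the start, were held for 3 of the 4 members. They are Fcer1g at chr1:171234300-171234599 on the minus strand, Ncr1 at chr7:4337465-4337764 on the plus strand and Hcst at chr7:30419805-30420104 on the minus strand. Capitals mark matches, on either strand, to TGTGGT (the core that Runx factors read), AGGAAG (ETS factors) and GGTGTGA (T-box factors). The letters of these motifs do not overlap in the windows shown.
Fcer1g: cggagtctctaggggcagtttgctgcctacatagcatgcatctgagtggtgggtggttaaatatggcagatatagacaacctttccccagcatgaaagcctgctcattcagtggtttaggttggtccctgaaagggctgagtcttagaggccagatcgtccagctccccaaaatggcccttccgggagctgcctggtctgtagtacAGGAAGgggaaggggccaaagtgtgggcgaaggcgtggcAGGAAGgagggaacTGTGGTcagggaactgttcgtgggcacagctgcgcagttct
Ncr1: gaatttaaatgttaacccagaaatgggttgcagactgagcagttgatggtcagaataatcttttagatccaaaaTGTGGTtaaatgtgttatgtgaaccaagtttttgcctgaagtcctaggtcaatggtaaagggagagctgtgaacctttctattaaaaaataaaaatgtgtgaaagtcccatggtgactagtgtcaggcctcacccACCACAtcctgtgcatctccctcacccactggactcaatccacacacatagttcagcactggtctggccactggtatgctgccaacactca
Hcst: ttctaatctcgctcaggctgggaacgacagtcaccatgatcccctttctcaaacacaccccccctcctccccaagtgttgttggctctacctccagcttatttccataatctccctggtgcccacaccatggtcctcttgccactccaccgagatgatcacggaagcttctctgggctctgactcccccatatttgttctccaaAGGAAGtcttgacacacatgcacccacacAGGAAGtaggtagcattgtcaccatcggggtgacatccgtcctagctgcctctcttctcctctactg
TGTGGT occurred once in the Fcer1g window, 2 times in the Ncr1 window and not in the Hcst window, against 16.8% of all 32851 promoters of this length. AGGAAG occurred 2 times in the Fcer1g and 2 times in the Hcst window and not in the Ncr1 window, against 35.4% of all promoters. GGTGTGA was in none of the 3 windows, against 3.98% of all promoters. A match is only a run of letters, and no binding was measured in these data.

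The hepatic library held 25040963 UMIs in 8658 barcodes and the thymic library 17371662 UMIs in 4541. Cells with 800 to 4000 genes and at most 6% mitochondrial UMIs numbered 8075 and 4351, with medians of 2741 and 3271 UMIs, and 56 barcodes occurred in both libraries among them. Joint clustering without the 4 genes gave 11 clusters. Hepatic cells fell mainly into classes named C4-like (3050 cells, led by Socs2 and Cd40lg), C5-like (2583, led by Ccl4, Ccl3 and Gzmb), C3-like (1105, led by Ly6c2 and Dapl1), C6-like (795, led by Il17a) and C7-like (270, led by Klra6 and Klrg1), with 106 myeloid-like cells led by Lyz2. Thymic cells were mainly C1-like (2425, immature cells with Hes1 and Sox13), with 180 C3-like and 164 C6-like cells, 536 cells led by cell cycle genes and 1033 cells in a cluster led by S1pr1, Cd200 and globin genes. The labels call all of these γδ T cells, and the Cd3 genes were detected in 99.96% of the C5-like cells that had Tyrobp.

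Tyrobp and Fcer1g were highest in the same hepatic groups, the myeloid-like cells, the C5-like cells and a cluster of 71 cells led by interferon-induced genes. Tyrobp stood at 3380 counts per 1000000 UMIs (CPM, interval 3205 to 3562) in myeloid-like cells and 2720 (2682 to 2758) in the C5-like class. The interferon cluster had 1407 (1250 to 1577). The other hepatic classes were lower, with 649 (595 to 707) for C7-like, 491 (476 to 505) for C4-like, 302 (284 to 320) for C3-like and 192 (175 to 210) for C6-like cells. In the thymus only the C3-like cells, at 160 CPM (129 to 196, 94 UMIs), were near these levels. The C1-like thymic cells held 16 Tyrobp UMIs in 2425 cells, or 1.87 CPM, and the C6-like thymic cells 1 UMI in 164 cells. Neighbours in this order had intervals that did not overlap down to hepatic C3-like cells, and the 3 lowest, all thymic, overlapped.

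Fcer1g stood at 3421 CPM (3245 to 3604) in myeloid-like cells and 2998 (2958 to 3038) in the C5-like class. The interferon cluster followed with 1762 (1586 to 1952). C4-like hepatic cells, at 769 (751 to 788), thymic C3-like cells, at 740 (672 to 813), and C7-like hepatic cells, at 703 (646 to 763), came next, each with an interval overlapping its neighbour's. Hepatic C3-like cells had 467 (445 to 490) and hepatic C6-like cells 211 (194 to 230). Thymic C1-like cells had 6.66 (5.05 to 8.63). Thymic C3-like cells were thus 5 in the order of 14 groups for Fcer1g and 9 for Tyrobp.

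Hcst had another distribution, broad and without a high class of its own. C7-like, C5-like and C4-like hepatic cells had 1345 (1266 to 1427), 1288 (1262 to 1314) and 1247 CPM (1224 to 1271), with overlapping intervals between neighbours. Hepatic and thymic C3-like cells had 831 (801 to 861) and 718 (651 to 790), and hepatic and thymic C6-like cells 657 (626 to 690) and 522 (459 to 591). Myeloid-like cells had only 313 (262 to 372), the lowest hepatic value but for the 34 hepatic cells of the S1pr1 and globin cluster at 292 (197 to 417). These 34 cells held no UMI of the 5 listed globin and other erythroid genes. C1-like thymic cells still had 204 (194 to 214) and the thymic cells led by cell cycle genes 99.4 (89.9 to 110).

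Ncr1 was highest in C5-like cells, at 261 CPM (249 to 273), followed by the interferon cluster at 158 (109 to 223). C7-like cells had 88.2 (68.9 to 111), C4-like 55.8 (51.0 to 60.9), hepatic C3-like 38.0 (31.9 to 44.9) and hepatic C6-like cells 19.1 (14.1 to 25.3). Thymic C3-like cells held 14 UMIs, or 23.8 CPM (13.03 to 39.98), the C1-like cells 1 UMI, and the thymic C6-like cells none in 164 cells, where 3 counts would be 6.26 CPM. CPM from 3′ tags do not depend on transcript length in the way full-length reads do, but the efficiency of capture can differ between genes, so the order of classes is given within each gene.

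**Figure D1:**
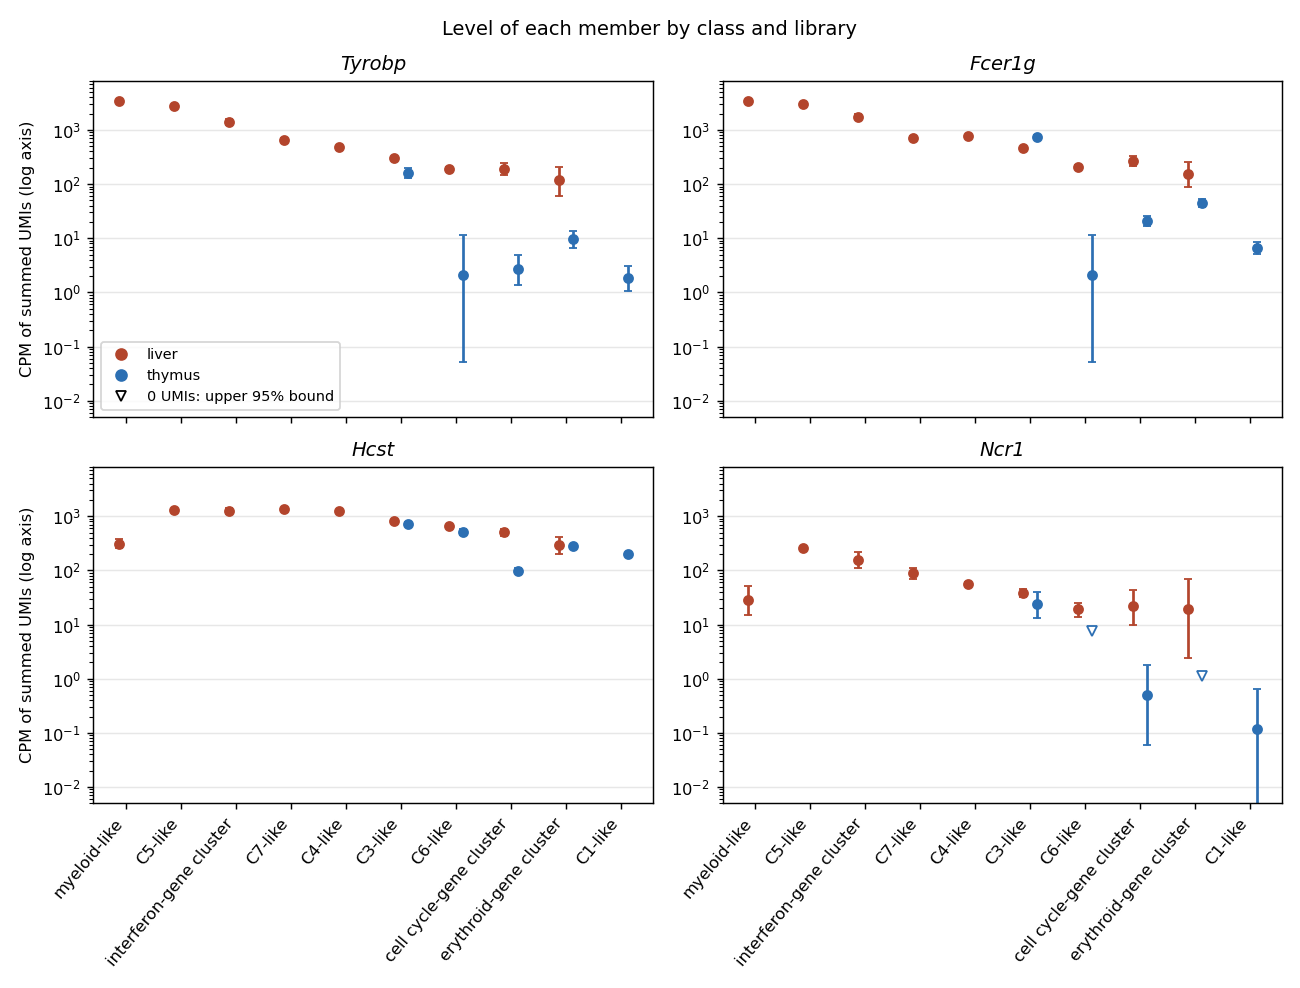
CPM of summed UMIs (log axis) of each gene in every class of at least 20 cells, hepatic in red and thymic in blue, with exact Poisson 95% intervals. Tyrobp and Fcer1g peak at 3380 and 3421 CPM in myeloid-like cells and at 2720 and 2998 in C5-like cells, Ncr1 peaks at 261 in C5-like cells, and Hcst stays between 99.4 and 1345 in all groups.

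The share of cells with a UMI followed the levels. After every cell was thinned to 1500 UMIs, Tyrobp was found in 92.8% of C5-like cells, 35.3% of C4-like, 25.5% of hepatic C3-like, 16.0% of hepatic C6-like and 12.3% of thymic C3-like cells, against 0.289% of thymic C1-like cells. The corresponding values for Fcer1g were 97.9%, 48.0%, 35.5%, 17.1%, 44.7% and 0.784%. For Ncr1 they were 28.3%, 5.77%, 5.17%, 1.64% and 3.35%, and 0 of 2422 thymic C1-like cells had a UMI, where 3 counts would be 0.124% and the exact upper bound is 0.152%. Hcst was found in 83.5% of C5-like and 81.0% of C4-like cells, and in 26.3% of thymic C1-like cells. Unthinned, with median depths of 2683 UMIs in C5-like, 2737 in hepatic C6-like and 3182 in thymic C1-like cells, Tyrobp was found in 96.6%, 26.3% and 0.619% of these classes.

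The hepatic C6-like cells, led by the interleukin-17 genes, held little of the ITAM genes, and their level was set beside that of genes that mark other hepatic cells. There Tyrobp stood at 7.06% (6.44 to 7.73), Fcer1g at 7.04% (6.45 to 7.67) and Ncr1 at 7.31% (5.37 to 9.73) of its C5-like level. The 7 marker genes of C5-like cells stood between 6.26% and 12.2% in the same cells, with Gzmb, a granzyme, at 8.69%, the chemokine genes Ccl3 and Ccl4 at 7.20% and 6.26% and Xcl1 at 8.20%. Fcer1g and Tyrobp also kept the same ratio, 1.10 Fcer1g UMIs per Tyrobp UMI in both classes. Hcst, at 51.0% (48.4 to 53.8), stood far above that level. With the cells of the highest Scrublet (doublet) scores removed, Tyrobp, Fcer1g and Ncr1 fell together to 92.6, 105 and 9.03 CPM, or 3.53%, 3.58% and 3.50% of the C5-like level, with the 7 markers between 2.94% and 10.53% and Hcst at 47.2%. Inside the class Fcer1g was found in 30.7% (22.8 to 39.5) of the thinned cells with Tyrobp and 14.5% (11.9 to 17.4) of those without. No empty droplets were measured, so free RNA, droplets with 2 cells and a low level in these cells cannot be told apart, and no expression by C6-like cells is read from these values. Of the 13 myeloid-like markers, Adgre1 had no UMI in hepatic C6-like cells and the others stood between 0.102% and 0.952% of their myeloid-like level.

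**Figure D2:**
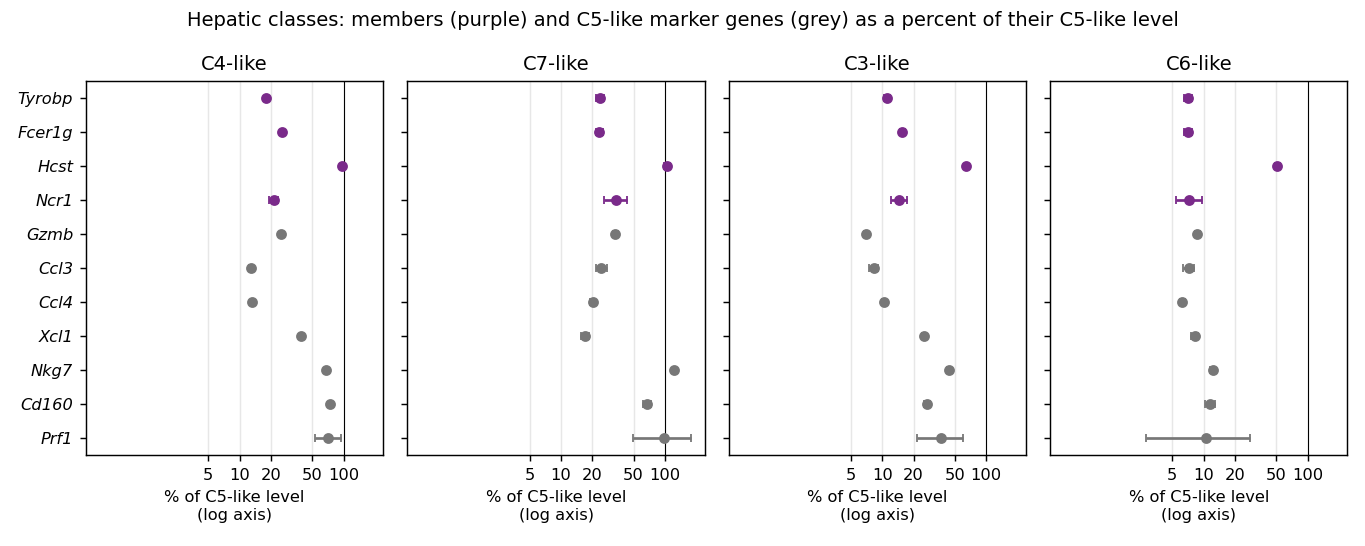
Level of the 4 genes (purple) and of 7 C5-like marker genes (grey) in other hepatic classes, as a percent of the C5-like level on a log axis, with exact 95% intervals. In C6-like cells Tyrobp, Fcer1g and Ncr1 lie at 7.04% to 7.31% among the marker genes, and Hcst lies at 51.0%.

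The first comparison was between the C5-like and C4-like cells, the largest hepatic classes, which came from the same library. Tyrobp, Fcer1g and Ncr1 were each more than 2-fold higher in C5-like cells, 3 of the 4 genes, where 2.42% of the 8837 genes tested were that much higher. Tyrobp was 5.54-fold higher, a log2 ratio of 2.47 (2.42 to 2.52). Ncr1 was 4.68-fold higher, a log2 ratio of 2.23 (2.08 to 2.37), and Fcer1g 3.90-fold higher, a log2 ratio of 1.96 (1.92 to 2.00). Hcst differed by a log2 ratio of only 0.05 (0.01 to 0.09), and this sign turned to -0.06 when mitochondrial and ribosomal-protein genes were left out of the total. At a clustering resolution of 0.8, which moved cells so that 1924 remained C4-like and 3701 were C5-like, the log2 ratios were 3.24 for Tyrobp, 3.36 for Ncr1 and 2.66 for Fcer1g. Tyrobp was then at 227 CPM in C4-like and 2136 CPM in C5-like cells.

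Against the C7-like cells, the smaller effector class, Tyrobp, Fcer1g and Ncr1 were again more than 2-fold higher in C5-like cells, where 7.49% of genes were. The log2 ratios were 2.07 (1.94 to 2.19), 2.09 (1.97 to 2.22) and 1.57 (1.22 to 1.93), and that of Hcst was -0.06 (-0.15 to 0.03). Against the C6-like cells the same 3 genes passed 2-fold, at log2 ratios between 3.77 and 3.83 where 8.37% of genes passed it. Hcst stayed at 0.97 (0.89 to 1.05).

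Myeloid-like cells, which use both ITAM adaptors with their own receptors, had slightly more of them than C5-like cells. The log2 ratio of C5-like over myeloid-like cells was -0.31 (-0.39 to -0.23) for Tyrobp and -0.19 (-0.27 to -0.11) for Fcer1g. Hcst was 4.11-fold higher and Ncr1 9.02-fold higher in C5-like cells, 2 of the 4 genes past 2-fold where 21.2% of genes were. The 12 Ncr1 UMIs of the myeloid-like cells correspond to 11.1% of the C5-like level, beside 10.2% for Gzmb, 11.9% for Xcl1, 14.3% for Nkg7, 15.9% for Prf1 (0.40 to 90.7), 17.0% for Cd160, 71.7% for Ccl4 and 190% for Ccl3, the 7 C5-like markers. Hcst there stood at 24.3%. The T cell marker list (Cd3d, Cd3e, Cd3g, Cd5, Cd6, Thy1 and Bcl11b, 7 of 7 detected) summed to 1099 CPM in myeloid-like and to 4748 CPM in hepatic T cells. A Cd3 UMI was found in 73.5% of the 34 myeloid-like cells with Hcst and in 33.3% of the 72 without it, and the mean number of myeloid marker UMIs was 33.3 and 53.9. The part of T cell RNA in these values was not tested.

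Between the tissues all 4 genes were more than 2-fold higher in hepatic T cells, where 11.4% of the 10639 genes tested were. Over all cells outside the myeloid-like cluster, Tyrobp stood at 1114 CPM (1100 to 1127) in the liver and 9.04 (7.67 to 10.6) in the thymus, a log2 ratio of 6.94 (6.72 to 7.18). The ratio was 6.82 (6.139 to 7.602) for Ncr1, on 2679 and 17 UMIs, 4.86 (4.75 to 4.96) for Fcer1g and 2.34 (2.29 to 2.39) for Hcst. The median of all genes tested was -0.22. Each tissue is 1 library, and the C5-like and C4-like classes had only 2 and 3 thymic cells, so tissue, library and the makeup of classes cannot be told apart in these values.

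C3-like cells were the best filled class in both libraries, and within it the tissue ratios were smaller than over all T cells. None of the 4 genes passed 2-fold in either direction, where 5.15% of genes were higher and 4.01% lower in the liver. The Ncr1 ratio of 0.67 (-0.12 to 1.58), on 137 and 14 UMIs, had an interval that held 0, so its direction is undecided. Tyrobp was higher in the liver by a log2 ratio of 0.92 (0.61 to 1.24), and Hcst was close (0.21, 0.06 to 0.36). Fcer1g went the other way, at -0.66 (-0.82 to -0.51), or 1.59-fold higher in the thymus. The hepatic values stand beside 211 CPM of Fcer1g and 192 CPM of Tyrobp in hepatic C6-like cells, and 105 and 92.6 CPM there without the highest Scrublet scores, and the part of that signal in hepatic C3-like cells was not tested. At a resolution of 0.8 only 48 thymic cells were C3-like, and the log2 ratios became -0.17 for Tyrobp, -0.88 for Fcer1g and -0.08 for Hcst.

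In C6-like cells Hcst differed little between the tissues, at a log2 ratio of 0.33 (0.14 to 0.53). Tyrobp (6.52, 4.04 to 11.8, on 483 and 1 UMIs) and Fcer1g (6.66, 4.18 to 12.0, on 531 and 1 UMIs) passed 2-fold. They were 2 of the 3 members with at least 50 UMIs, where 6.59% of genes were higher. Ncr1, with 48 and 0 UMIs, was under that limit. It was 3.05-fold higher in the liver if the thymic class is given 3 counts, and the exact lower bound of its ratio was 2.38-fold. The hepatic values are the low levels described above, so no difference in expression is read from these ratios.

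Within the thymus the C3-like cells stood apart from the immature C1-like cells. The 3 members with at least 50 UMIs were more than 2-fold higher, where 5.99% of genes were, and Ncr1 was under that limit. The log2 ratios were 6.42 (5.64 to 7.28) for Tyrobp, 6.80 (6.39 to 7.22) for Fcer1g, 7.67 (4.95 to 13.1, on 14 and 1 UMIs) for Ncr1 and 1.82 (1.66 to 1.97) for Hcst. The S1pr1 and globin cluster lay between, with 9.63 CPM of Tyrobp, 45.1 of Fcer1g and 277 of Hcst, and no Ncr1 UMI in 1033 cells.

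The ratio of the summed UMIs of the 2 ITAM adaptors differed between the libraries more than between hepatic classes. C5-like cells had 1.10 Fcer1g UMIs per Tyrobp UMI (1.08 to 1.12), C7-like cells 1.08 (0.96 to 1.22) and myeloid-like cells 1.01 (0.94 to 1.09). C4-like and hepatic C3-like cells had 1.57 (1.51 to 1.63) and 1.55 (1.43 to 1.67). Thymic C3-like cells had 4.63 (3.70 to 5.85), and the S1pr1 and globin cluster of the thymus 4.69 (3.18 to 7.10). Hepatic C6-like cells, whose low levels are not read as expression, had 1.10 (0.97 to 1.25). The part of such signal in the C4-like and hepatic C3-like ratios was not tested. Each tissue is 1 library, so tissue and library cannot be told apart in these ratios. Hcst UMIs per Tyrobp UMI were fewest in myeloid-like cells, at 0.09 (0.08 to 0.11), followed by the C5-like class with 0.47 (0.46 to 0.49). The C4-like class had 2.54 (2.45 to 2.63) and thymic C3-like cells 4.49 (3.58 to 5.68).

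**Figure D3:**
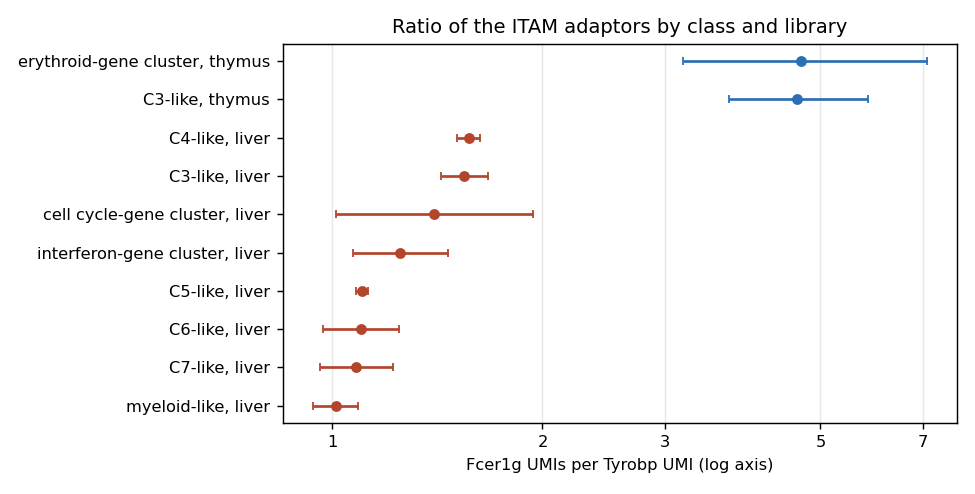
Fcer1g UMIs per Tyrobp UMI (log axis) in each class and library with exact 95% intervals, hepatic in red and thymic in blue. All hepatic groups shown lie between 1.01 and 1.57, and both thymic groups with enough UMIs lie at 4.63 and 4.69. The part of signal shared by hepatic classes was not tested, and each tissue is 1 library.

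Co-expression was examined within classes, in cells thinned to 1500 UMIs. In C4-like cells Fcer1g was found in 66.4% (63.5 to 69.3) of the 1076 cells with Tyrobp and in 38.0% (35.8 to 40.2) of the 1974 without it, 1.38 times as many joint cells as independence gives. Hepatic C3-like cells had 54.8% (48.8 to 60.7) and 29.0% (25.9 to 32.2), 1.54 times. Thymic C3-like cells had 72.7% (49.8 to 89.3) and 40.8% (33.0 to 48.9), with 16 cells holding both, 6 Tyrobp alone, 64 Fcer1g alone and 93 neither. In C5-like cells nearly all cells had Fcer1g, 98.2% with and 93.0% without Tyrobp, which leaves little room for a difference. Hepatic C6-like cells, whose low levels are not read as expression, also had Fcer1g more often with Tyrobp, as given above. Without the highest Scrublet scores, Tyrobp in C4-like cells was 334 CPM in place of 491. The Fcer1g difference there was 24.7 percentage points in place of 28.5. The part of free RNA and of droplets with 2 cells in these shares was not tested.

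Ncr1 was found more often in C4-like cells with the ITAM adaptors. In C4-like cells Ncr1 was found in 10.97% (9.16 to 12.99) of cells with Tyrobp and 2.94% of cells without, and in 9.83% (8.35 to 11.5) of cells with Fcer1g and 2.02% of cells without. Of the C4-like cells with Ncr1, 67.0% (59.6 to 73.9) had Tyrobp and 81.8% (75.3 to 87.2) had Fcer1g. All 6 thymic C3-like cells with Ncr1 had Tyrobp, and 5 of them had Fcer1g. In C5-like cells Ncr1 was found in 21.6% of cells with no Tyrobp UMI and in 22.5% to 31.4% of groups of cells with 1 or more. Of the 731 C5-like cells with Ncr1, 730 had a Cd3 UMI.

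In the C4-like and C5-like classes Hcst differed little between cells with and without Tyrobp. It was in 81.9% and 80.5% of C4-like cells with and without Tyrobp, and in 83.5% and 83.2% of C5-like cells. The C4-like difference of 1.33 points (-1.10 to 3.59) was 2.56 (0.66 to 4.27) in cells thinned to 2000 UMIs and 3.40 (2.15 to 4.47) without thinning. These intervals leave out the counting error of the cells without Tyrobp, so they are too narrow. Split by Fcer1g, Hcst was in 82.3% and 79.9% of C4-like, 89.2% (82.6 to 94.0) and 80.6% (73.0 to 86.8) of C7-like and 65.0% (53.5 to 75.3) and 53.5% (43.2 to 63.6) of thymic C3-like cells. In C5-like cells 22.3% (20.7 to 23.9) held all 4 transcripts, 59.6% (57.7 to 61.5) held 3, and 3 of 2582 cells held none. In C1-like thymic cells 73.1% (71.3 to 74.8) held none, and in myeloid-like cells 67.0% (57.2 to 75.8) held exactly 2.

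**Figure D4:**
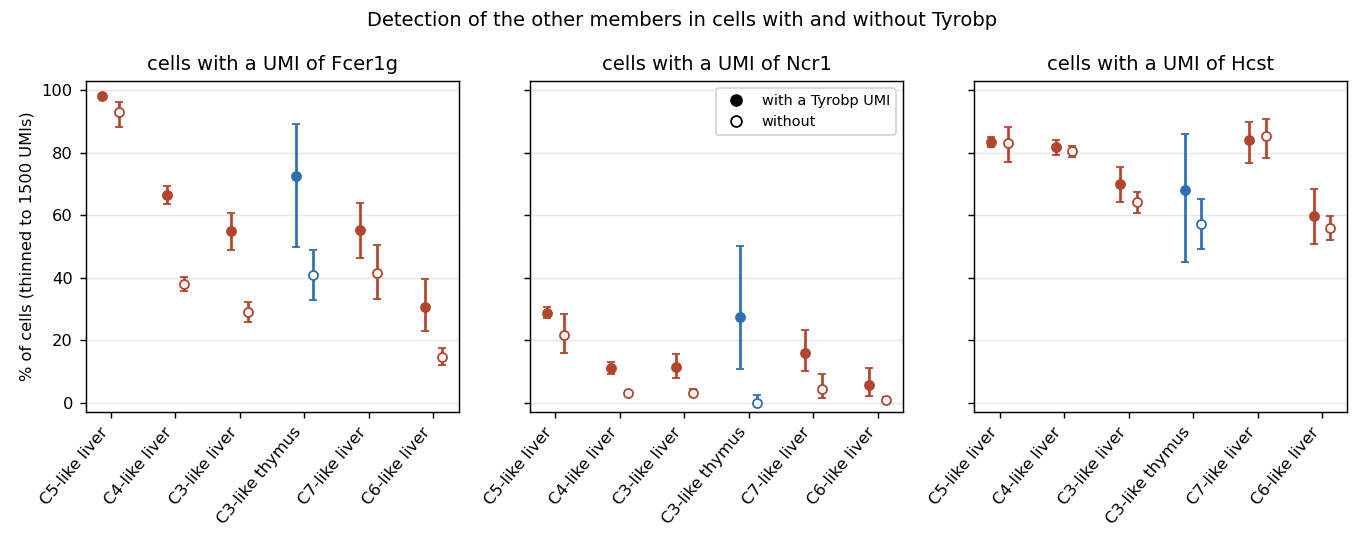
Percent of thinned cells with a UMI of Fcer1g, Ncr1 or Hcst among cells with (filled) and without (open) a Tyrobp UMI, by class, with exact 95% intervals. In C4-like cells Fcer1g rises from 38.0% to 66.4% and Ncr1 from 2.94% to 10.97%, and Hcst stays near 81%.

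The relation was graded in C4-like cells, and less so in C5-like cells. In C4-like cells the mean number of Fcer1g UMIs was 0.72 in cells with no Tyrobp UMI, 1.33 with 1, 2.01 with 2, 2.42 with 3 to 4 and 2.98 with 5 to 7. The share with Ncr1 went from 2.94% to 5.68%, 13.9%, 19.2% and 22.6% over the same bins, and mean Hcst stayed between 1.85 and 2.00 UMIs. In C5-like cells mean Fcer1g was 3.04, 3.97 and 4.28 UMIs with 0, 1 and 2 Tyrobp UMIs. It was 4.55, 4.85 and 5.32 with 3 to 4, 5 to 7 and 8 or more. The share of C5-like cells with Ncr1 was 21.6%, 22.5% and 26.1% with 0, 1 and 2 Tyrobp UMIs. It was 31.4%, 30.2% and 27.7% with 3 to 4, 5 to 7 and 8 or more, so it did not rise steadily. Hepatic C6-like cells had Fcer1g in 14.5% of cells with no Tyrobp UMI and 15.4% with 1, and in 57.1% of the 21 cells with 2. Their share with Ncr1 went from 0.90% to 3.30% and 14.3%. Between cells with no Tyrobp UMI and cells with 3 to 4, mean Fcer1g went from 0.47 to 2.11 UMIs in hepatic C3-like cells. It went from 0.66 to 1.88 in C7-like cells. The share with Ncr1 went from 3.04% to 25.7% in the former and, not steadily, from 4.38% to 16.7% in the latter.

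**Figure D5:**
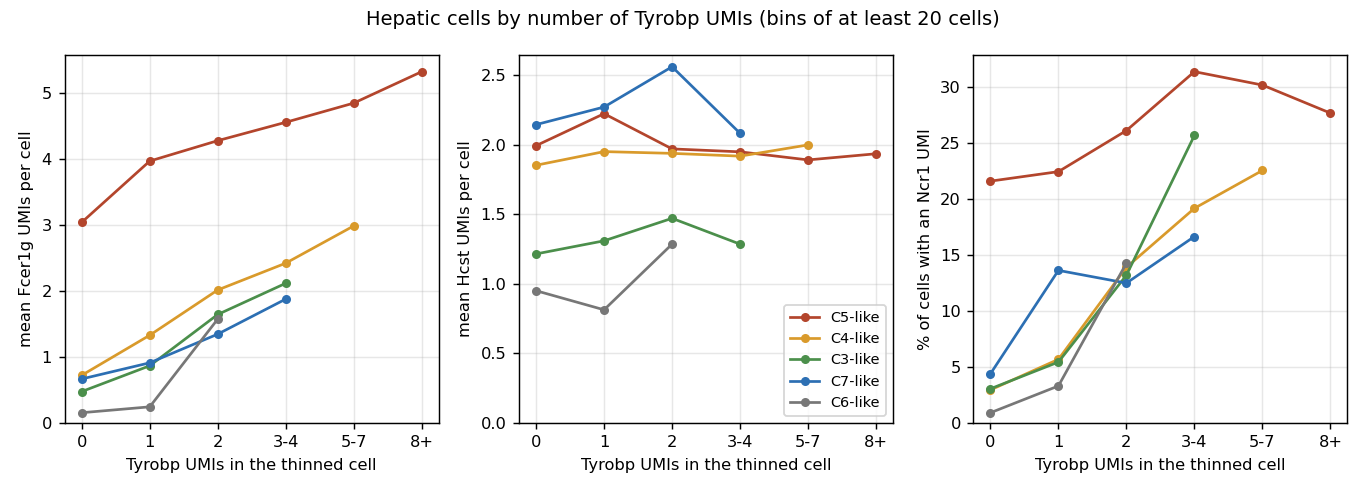
Mean Fcer1g UMIs, mean Hcst UMIs and percent of cells with Ncr1 in hepatic cells grouped by their number of Tyrobp UMIs after thinning to 1500, 1 line per class. Fcer1g and Ncr1 go up with Tyrobp in C4-like cells (0.72 to 2.98 UMIs and 2.94% to 22.6%), and Hcst does not. Fcer1g also goes up with Tyrobp in the other classes shown.

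These shares depend on where the border between C4-like and C5-like cells was drawn. At a resolution of 0.8 Fcer1g was found in 43.8% of C4-like cells with Tyrobp and 30.8% without, a difference of 12.99 percentage points in place of 28.5. In the C5-like cells of that resolution the shares were 95.04% and 68.9%, a difference of 26.2 points in place of 5.27. The direction was kept in both classes. Tyrobp was found in 35.7% of C4-like cells with Ncr1 and 22.8% of those without, a difference of 12.9 points (-1.30 to 29.1) in place of 33.7, with an interval that holds 0. That interval leaves out the counting error of the cells without Ncr1. Hcst by Tyrobp differed by 1.52 points in C4-like cells there.

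Receptors that use these adaptors were measured beside them. Of 13 listed receptors that signal through DAP12, 7 reached 50 CPM in some class. None of the 3 tested between C5-like and C4-like cells passed 2-fold. Of all genes tested 2.42% were higher and 2.67% lower, so for 3 genes this count is near that share. Klrd1, which encodes CD94, stood at 1862 and 1020 CPM in C5-like and C4-like cells, and Klrc2, the activating NKG2C chain, at 460 and 301 CPM. Klrk1, the NKG2D gene that can use DAP10, stood at 733 and 817 CPM and was highest in C7-like cells at 957. Trem3, a myeloid receptor, was highest in myeloid-like cells at 79.6 CPM.

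Of 12 receptors that signal through FcRγ, 2 of the 3 tested were more than 2-fold higher in C5-like than in C4-like cells, where 2.42% of all genes tested were. These were the low-affinity Fc receptor Fcgr3, at 25.9 and 5.27 CPM, and Klrb1a, at 41.3 and 6.05 CPM. Klrb1c, which encodes NK1.1, stood at 584 and 319 CPM. Clec4e, Fcgr3 and Fcgr4 were highest in myeloid-like cells, at 306, 263 and 263 CPM. Of 6 other ITAM chains, 1 of 5 tested passed 2-fold against the same 2.42%, Cd79b at 19.0 and 7.51 CPM. The T cell receptor chains did not, with Cd3g at 2611 and 1642 CPM, Cd3d at 1232 and 1224, Cd3e at 1139 and 845, and Cd247, the CD3ζ gene, at 141 and 162 in C5-like and C4-like cells.

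Among 14 kinases and adaptors downstream of the ITAM, 5 of 12 tested were more than 2-fold higher in C5-like than in C4-like cells, where 2.42% of all genes tested were, and none was that much lower, where 2.67% were. Lat2, a transmembrane adaptor of ITAM signalling outside the T cell receptor, stood at 217 and 46.6 CPM, a log2 ratio of 2.22 (2.06 to 2.38). Syk stood at only 9.57 and 1.90 CPM, the phospholipase gene Plcg2 at 30.1 and 7.84, and the Src family kinases Lyn and Fgr at 37.9 and 17.5 and at 33.7 and 16.8. The T cell receptor kinases Zap70, at 245 and 198 CPM, and Lck, at 563 and 505, and the adaptor Lat, at 223 and 325, stayed within 2-fold. Lat was highest in thymic C1-like cells (1016 CPM) and Lyn in myeloid-like cells (260).

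None of 6 tested genes of signalling downstream of DAP10, of 8 listed, passed 2-fold. Of all genes tested 2.42% were higher and 2.67% lower, so for 6 genes this count is near that share. Pik3r1, a subunit of phosphatidylinositol 3-kinase, stood at 176 and 153 CPM, its catalytic partner Pik3cd at 94.2 and 87.4, Grb2 at 108 and 117 and the exchange factor Vav1 at 72.7 and 64.5 in C5-like and C4-like cells. Of the 3 SAP family adaptors 2 were tested and both passed 2-fold, where 2.42% of all genes were higher and 2.67% lower. Sh2d1b1 (EAT-2) was higher in C5-like cells, at 21.8 and 1.12 CPM, and Sh2d1a (SAP) lower, at 18.6 and 97.2. Sh2d1b2 was listed at 0 UMIs. Of 12 receptors and phosphatases that act through inhibitory tyrosine motifs, 3 of 9 tested were more than 2-fold higher, against 2.42% of all genes, Klra7 (353 and 74.4 CPM), Klra3 (35.8 and 14.2) and the phosphatase gene Ptpn6 (181 and 87.8). Klrc1, the inhibitory NKG2A chain, stood at 691 and 807 CPM, and Cd300a was highest in myeloid-like cells at 294. Klra genes are near-identical copies, so reads may be split between them and their values are uncertain.

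The median log2 ratio of C5-like over C4-like cells was 0.61 for 3 tested DAP12 receptors, 2.30 for 3 FcRγ receptors and 0.43 for 5 other ITAM chains. It was 0.23 for 12 ITAM kinases and adaptors, 0.15 for 6 DAP10 genes and 0.16 for 9 genes of the inhibitory list, against -0.0021 over all 8837 genes. The SAP family value, 0.95, lies between 2 genes that went opposite ways, Sh2d1b1 higher and Sh2d1a lower, and describes neither.

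Some of these partners were read in cells with and without an adaptor inside the C4-like class. The genes named were chosen after their values were seen, so their intervals are a description. Lat2 stood at 61.0 CPM in cells with Fcer1g and 22.7 in cells without, a log2 ratio of 1.42 (0.96 to 1.91), and in thymic C3-like cells at 133 and 6.73, a log2 ratio of 4.31 (1.62 to 9.70). Klra7 (112 and 22.3), Klra1 (67.8 and 27.8), Klrd1 (1354 and 736), Klrc2 (394 and 237) and Klrb1c (384 and 274) were also higher in C4-like cells with Fcer1g. Zap70 (192 and 189) and Cd247 (165 and 165) were level. Klrk1 stood at 888 and 802, a log2 ratio of 0.15 (0.05 to 0.24). Split by Tyrobp in place of Fcer1g, the log2 ratios were -0.03 (-0.13 to 0.06) for Klrk1, 0.72 (0.29 to 1.15) for Lat2 and 2.01 (1.65 to 2.38) for Klra7. In C5-like cells, 185 of them without Tyrobp, they were 0.04 (-0.09 to 0.17) for Klrd1 and -0.01 (-0.26 to 0.26) for Klrc2. Klra7 had 0.31 (-0.02 to 0.66) and Lat2 0.35 (-0.09 to 0.82) there, so all these intervals held 0. Split by Fcer1g, which 55 C5-like cells were without, Klrd1 had 0.29 (0.04 to 0.55) and Klrk1 -0.45 (-0.77 to -0.12). Lat2 and Klra7 were more than 2-fold higher in C5-like than in C4-like cells too, and the part of cells near the border between the classes was not tested.

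Over the 13 class by library profiles of T cells, the profile most like that of Tyrobp was that of Lrrk1, with a Pearson correlation of log2(CPM + 10) of 0.98, followed by Ncr1 (0.98), Gzmb (0.98), Osgin1 (0.97) and Fcer1g (0.97). Those most like Fcer1g were Tyrobp (0.97), Rgs3 (0.96), Klrd1 (0.96), Chsy1 (0.96) and Xcl1 (0.95). Those most like Ncr1 were Tyrobp (0.98), Lrrk1 (0.97), Gpr18 (0.96), Osgin1 (0.96) and Ppp3cc (0.96). Hcst went with a different set, Prex1, Serpina3g, H2-K1, H2-Q7 and Icam1 (0.96 to 0.95), and correlated with Tyrobp, Ncr1 and Fcer1g at 0.86, 0.83 and 0.81. The search covered 2251 genes, and the profiles share 2 libraries, so the values are a description.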

How the data were processed

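The authors sorted γδ T cells, made 3′ version 2 droplet libraries and deposited UMI counts for each gene and barcode, not normalized. Per the labels, Cell Ranger and Seurat 3 were used with mm10, and the versions of Cell Ranger and of the annotation are not given in the sources used here. The members and lists were chosen with earlier results of these data known. 2 stray lines at the end of the thymic matrix were skipped. In all 12426 cells were kept and clustered in Seurat 5.3.0 (R 4.3.3) with LogNormalize, 30 principal components and resolution 0.6, on 2000 variable genes from which 43 members and pathway genes were left out. Clusters took a class name from marker genes when the mean log2 ratio of the markers (10 CPM added) reached 0.5 and led the next class by 0.2, unless 2 of the 10 leading genes were cell cycle, interferon, B cell or erythroid genes. Both limits were set with the clusters in view. The automatic Scrublet threshold (scanpy 1.11.5) marked 1 and 2 cells, so it did not work and doublets were kept.

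UMIs were summed per class and library to CPM with exact Poisson intervals. Ratios have exact conditional binomial intervals, shares exact Clopper-Pearson intervals after thinning to 1500 UMIs, which left out 5 hepatic and 7 thymic cells. For a difference between shares, the interval of the share with the gene was shifted by the share without it, so it is too narrow. UMIs do not cover capture or sorting error. The share of genes past 2-fold was taken over those with 50 or more UMIs in the groups compared, leaving out mitochondrial and ribosomal-protein genes. With 1 library per tissue no test across samples exists and no p-value is given. The ratio and thinning steps were tested on simulated data. By rule the text names the 4 members, for each pathway list the 4 genes with the highest level in any class and, in a comparison, those past 2-fold, and the 5 most alike profiles among genes with at least 100 CPM. The partner genes read by adaptor were chosen after their values were seen. Promoters are from RefSeq on GRCm38.p6 and coding sequences from GENCODE vM21.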

Additional observations from a re-analysis of the deposited data

Results flagged for a closer look

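The log2 ratio of liver over thymus for Fcer1g was -0.665 in C3-like cells and 6.66 in C6-like cells, opposite signs in classes held by both libraries. The difference was not tested, since each tissue is 1 library. The C6-like value sets 531 hepatic UMIs, at 7.04% of the C5-like level and among the values of C5-like marker genes there, against 1 thymic UMI. The C3-like value rests on 1684 hepatic and 435 thymic UMIs.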

How the results depend on the processing

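Of 198 values recomputed for 27 results, 152 stayed within the counting interval of the main value (or, for counts of genes, within 1.5 times), 43 moved out of it and 3 changed sign. The cause was not tested. No paired analysis was possible because each tissue gave 1 library, and no library could be left out. Counting intervals are narrow where a class holds many UMIs, so a small move in class borders leaves them. Those of differences between shares are also too narrow, as described above.

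C5-like over C4-like log2 ratios kept their direction for Tyrobp, Fcer1g and Ncr1 in every alternative run. For Tyrobp they were 2.57 as a mean of the CPM of cells, 2.36 without mitochondrial and ribosomal-protein genes in the total, 3.24 at resolution 0.8, 2.67 with 20 principal components, 2.57 with the full set of variable genes, 2.54 with at least 500 genes per cell, 2.53 with ribosomal-protein UMIs at most 50% and 2.97 with the highest Scrublet scores removed. For Fcer1g they were 2.02, 1.85, 2.66, 2.19, 2.04, 2.03, 2.01 and 2.35 in the same order. For Ncr1 they were 3.36 at resolution 0.8, 2.55 with 20 principal components, 2.39 with the full set and 2.74 without the highest Scrublet scores. Hcst turned to -0.065 without mitochondrial and ribosomal-protein genes.

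Liver over thymus in all T cells became 4.71 for Fcer1g and 2.19 for Hcst without those genes in the total, and 2.19 for Hcst as a mean over cells. In C3-like cells at resolution 0.8, with 48 thymic cells, Tyrobp turned to -0.17 and Hcst to -0.080, and Fcer1g was -0.88. Fcer1g there was also -0.47 with 20 principal components, -0.51 with at least 500 genes and -0.93 without the highest Scrublet scores. No C6-like ratio left its interval.

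Detection of Fcer1g by Tyrobp in C4-like cells differed by 12.99 percentage points at resolution 0.8, 24.7 with 20 principal components, 31.5 with ribosomal-protein UMIs at most 50% and 24.7 without the highest Scrublet scores. Detection of Tyrobp by Ncr1 there differed by 12.9 and 41.7 at resolution 0.8 and under the ribosomal limit, against 33.7, and the interval of the first held 0 (-1.30 to 29.1). Tyrobp in hepatic C6-like cells, 192 CPM, was 92.6 without the highest Scrublet scores and between 189 and 197 in the other clustering settings, a comparison added after seeing the data. In C5-like cells Fcer1g by Tyrobp differed by 6.12 thinned to 2000 UMIs, 6.46 unthinned, 26.2 at resolution 0.8, 10.3 with 20 principal components, 8.78 with 500 genes, 9.50 with mitochondrial UMIs at most 10% and 6.49 without the highest Scrublet scores. With at least 10 UMIs over both groups, 440 genes were more than 2-fold higher in C5-like than in C4-like cells in place of 214, 938 in place of 295 in C3-like liver over thymus and 1044 in place of 338 in C6-like liver over thymus.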

Other observations

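The hepatic cluster led by interferon-induced genes, 71 cells, stood between C5-like and C4-like cells for the ITAM genes. It had 1407 CPM of Tyrobp (1250 to 1577), 1762 of Fcer1g (1586 to 1952) and 158 of Ncr1 (109 to 223), and 1244 of Hcst (1097 to 1405), close to both classes. Fcer1g was found in 90.9% of its 44 thinned cells with Tyrobp and 63.0% of those without.

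Cells led by cell cycle genes had little of any of the 4 in the thymus, at 2.71 CPM of Tyrobp, 20.9 of Fcer1g, 99.4 of Hcst and 0.49 of Ncr1. The 56 hepatic cells of the same cluster had 191 (148 to 242), 266 (215 to 326), 507 (436 to 587) and 22.4 (9.68 to 44.2), with the intervals of Tyrobp, Fcer1g and Ncr1 overlapping those of hepatic C6-like cells. The B cell marker list summed to 776 CPM in these 56 cells and 36.2 in all hepatic T cells, and the myeloid-like list to 3353 and 152. The part of RNA from other cell types in their values was not tested.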
